A study of Mus musculus with 6 samples.

Results

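The 9 genes described here encode proteins of the myelin sheath and of the mature oligodendrocyte: *Mbp*, *Mobp*, *Mal*, *Cldn11*, *Mog*, *Mag*, *Opalin*, *Cnp* and *Ermn*. They were taken by symbol from a table of 24453 gene rows, and each matched 1 row. The table holds 6 messenger RNA libraries of visual cortex, 3 from *Chrdl1* knockouts (KO) and 3 from wild type (WT). The mice were C57BL/6J males, 14 days old. The 2 genotypes share sex, strain, age and tissue, and all animals were perfused with paraformaldehyde before dissection. How the knockout allele was made and whether libraries pool animals are not given in the sources used here. Library titles start with the genotype and a code that 1 WT and 1 KO library share. The 3 pairs are called here pair A (WT1011 and KO1011), pair B (WT1012 and KO1012) and pair C (WT1013 and KO1013). The labels do not say what the code stands for or whether libraries come from different animals, so p-values reflect only how these libraries vary.

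Oligodendrocytes wrap axons in stacked membrane, which insulates the axon and supports it metabolically. Precursor cells leave the cell cycle, pass through a premyelinating stage and then switch on the myelin genes together, under transcription factors that include Olig2, Sox10 and Myrf. In the mouse cortex this switch is under way in the weeks after birth and proceeds from the white matter outward. Bone morphogenetic proteins (BMPs) restrain the step from precursor to oligodendrocyte, and *Chrdl1* encodes a secreted BMP antagonist made by astrocytes. The genotype comparison asks how the transcriptome of the cortex changes when it is missing.

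*Chrdl1* itself measured 3.57, 3.09 and 3.65 FPKM in WT1011, WT1012 and WT1013, and 0.19, 0.12 and 0.172 FPKM in the KO libraries of the same pairs. Every KO label thus matched its level. FPKM counts fragments per kilobase of exon and mapped reads, so levels of different genes can be set side by side. Depth estimated from the 1-read steps of the values ranged from 22.7 to 38.2 megareads per library. The 7 excitatory cortical neuron markers were all above the filter and summed to 692 to 814 FPKM, with *Slc17a7*, the cortical vesicular glutamate transporter gene, at 565 to 689. Markers of striatal neurons, which the label does not name, were detected as well and summed to 134 to 308 FPKM.

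The upstream sequence of 4 of the 9 genes is shown as an example. All 9 varied together across the libraries, as described below, and a link between sequence and this variation was not tested. Each run is the 250 bases before an annotated start in RefSeq (GRCm38.p6, the build that mm10 names), read 5′ to 3′ on the strand of the gene. None of the 4 windows overlapped an annotated exon. Capitals mark matches on either strand to 3 motifs: the E-box CANNTG read by helix-loop-helix factors such as Olig2, the SOX core ACAAAG or ACAATG, and the Myrf motif CTGGCAC or CTGGTAC. The windows are chr17:37023399-37023648 (minus strand) for *Mog*, chr7:30914923-30915172 (minus strand, the most upstream of 3 starts) for *Mag*, chr19:41077114-41077363 (minus strand) for *Opalin* and chr2:127656696-127656945 (minus strand) for *Mal*.
Mog: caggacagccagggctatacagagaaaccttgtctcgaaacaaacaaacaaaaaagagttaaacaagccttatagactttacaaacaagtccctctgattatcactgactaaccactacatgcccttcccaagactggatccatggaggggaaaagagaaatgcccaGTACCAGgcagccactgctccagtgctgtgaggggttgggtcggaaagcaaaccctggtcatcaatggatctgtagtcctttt
Mag: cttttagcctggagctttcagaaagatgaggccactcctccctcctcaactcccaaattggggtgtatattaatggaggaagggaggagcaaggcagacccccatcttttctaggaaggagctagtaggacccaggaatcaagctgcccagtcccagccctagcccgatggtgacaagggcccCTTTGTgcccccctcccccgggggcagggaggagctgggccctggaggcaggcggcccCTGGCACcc
Opalin: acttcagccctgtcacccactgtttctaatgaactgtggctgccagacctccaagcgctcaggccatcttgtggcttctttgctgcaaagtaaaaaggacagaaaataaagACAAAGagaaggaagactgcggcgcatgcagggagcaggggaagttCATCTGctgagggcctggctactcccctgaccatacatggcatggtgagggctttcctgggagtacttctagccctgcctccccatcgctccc
Mal: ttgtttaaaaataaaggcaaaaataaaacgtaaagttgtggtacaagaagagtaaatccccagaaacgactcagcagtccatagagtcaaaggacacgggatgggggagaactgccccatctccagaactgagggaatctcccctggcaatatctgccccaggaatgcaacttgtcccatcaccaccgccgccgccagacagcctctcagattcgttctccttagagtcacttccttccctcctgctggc

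Promoter windows matched 8 of the 9 genes, with 10 windows in all, 3 of them of *Mag*. Unlike those shown, some windows of *Mag* and the windows of *Mobp* and *Cnp* overlapped an annotated exon of the same gene. They include the *Cnp* window and a *Mag* window with a Myrf match, and the *Mobp* window with its 6 SOX matches. A pair of the *Mag* windows overlap and share the same Myrf and SOX matches, so window counts include those matches more than once. Counted by gene, the Myrf motif was in 3 of 8 and the SOX core in 5 of 8. The share by gene over all genes was not computed, and a gene with several starts has more chances of a match. The shares given below are by window. The Myrf motif was in 4 of the 10 windows (those of *Mag*, *Cnp* and *Mog*), and 5.9% of 32851 windows of the same length over all genes held it. The SOX core was in 6 of the 10 (of *Ermn*, *Mag*, *Mobp*, *Cnp* and *Opalin*), against 25.2% of all windows. An E-box was in 4 of the 10 (of *Mag*, *Cnp* and *Opalin*), against 66.2% of all windows. No matches of different motifs overlapped in the windows shown, and the *Mal* and *Cldn11* windows held none of the 3 motifs. These counts describe letters in a window and are not evidence of binding.

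*Mbp* was highest, at 1055 ± 263 FPKM (SD, n = 6 libraries of both genotypes), and *Ermn* lowest, at 7.57 ± 2.73. Between them came *Cnp* at 183 ± 35.2, *Mag* at 108 ± 24.2, *Cldn11* at 101 ± 26.4, *Mobp* at 70.2 ± 19.6, *Mal* at 61.5 ± 27.4, *Mog* at 45.4 ± 14.5 and *Opalin* at 12.1 ± 4.13. The steps from *Mbp* to *Cnp*, *Cnp* to *Mag*, *Cldn11* to *Mobp*, *Mog* to *Opalin* and *Opalin* to *Ermn* kept their order in 6 of 6 libraries. The neighbours *Mag* and *Cldn11* (5 of 6), *Mobp* and *Mal* (5 of 6) and *Mal* and *Mog* (4 of 6) changed places in at least 1 library and do not differ beyond their spread. The authors' model of *Mbp* (chromosome 18, 82554463 to 82585637, plus strand, mm10, 1978 bp of exon) begins inside the longer RefSeq locus, so its value is that of the 3′ part of the locus.

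**Figure D1:**
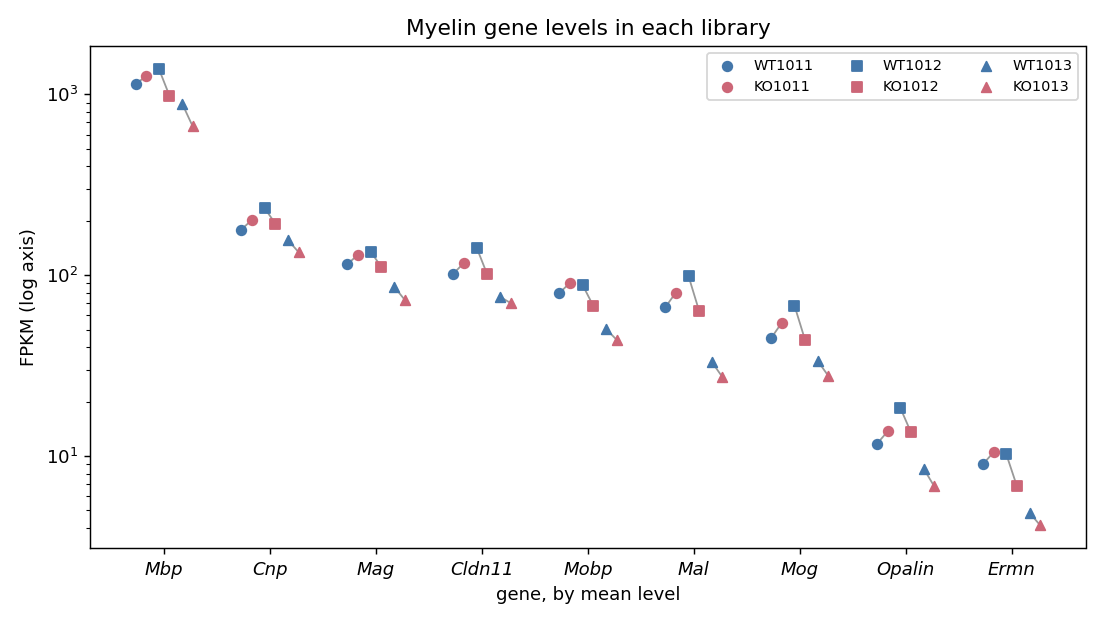
FPKM (log axis) of each of the 9 genes in the 6 libraries, with colour for genotype, symbol for pair, and a line joining the WT and KO library of a pair. For each gene the 2 triangles (pair C) are the lowest points, and KO lies above WT in pair A and below it in pairs B and C.

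Among the proteins that build the membrane stack, *Mbp*, which holds the cytoplasmic faces of myelin together, measured 1136, 1387 and 890 FPKM in WT1011, WT1012 and WT1013 and 1268, 985 and 665 in KO. The genotypes overlapped, with the highest value in WT1012 and the lowest in KO1013. *Mobp*, which encodes a small basic protein of compact myelin, measured 79.6, 88.3 and 50.5 FPKM in WT and 90.7, 67.8 and 44 in KO. Here KO1011 was the highest library and KO1013 again the lowest.

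*Mal*, a proteolipid gene of membrane sorting, varied most of the 9, at 66.4, 98.8 and 33.1 FPKM in WT and 80.1, 63.4 and 27.3 in KO. Its highest library was 3.62 times its lowest, and 99.7% of tested genes had a smaller standard deviation over the 6 libraries on the log2(FPKM + 1) scale. *Cldn11*, which encodes the claudin of the tight junctions between myelin layers, measured 102, 142 and 76 FPKM in WT and 117, 101 and 70.2 in KO. Both genes were highest in WT1012 and lowest in KO1013.

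The cell surface genes were also lowest in both libraries of pair C. *Mog*, whose immunoglobulin-like product lies on the outermost face of myelin, measured 44.9, 67.9 and 33.5 FPKM in WT and 54.6, 43.8 and 27.7 in KO. *Mag*, which encodes a sialic acid-binding lectin facing the axon, measured 115, 135 and 86.6 FPKM in WT and 130, 111 and 73.2 in KO. *Opalin*, which encodes a transmembrane glycoprotein of oligodendrocytes, measured 11.7, 18.4 and 8.5 FPKM in WT and 13.7, 13.5 and 6.78 in KO. All 3 overlapped between genotypes. *Opalin* rested on the fewest reads, 158 to 552 per library, and its exact Poisson 95% intervals, which cover counting error only, were 16.9 to 19.9 FPKM in WT1012 and 5.76 to 7.92 in KO1013, so these 2 libraries differed by more than counting error.

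The genes for proteins of the cytoplasm were lowest in pair C as well. *Cnp*, which encodes a cyclic nucleotide phosphodiesterase that keeps cytoplasmic channels open in myelin, measured 179, 234 and 156 FPKM in WT and 203, 193 and 134 in KO. It varied least of the 9, with the highest library 1.74 times the lowest, yet 94.9% of tested genes had a smaller standard deviation. *Ermn*, which encodes the actin-binding protein ermin of late oligodendrocytes, measured 9.02, 10.2 and 4.84 FPKM in WT and 10.5, 6.8 and 4.13 in KO. KO1013 was the lowest library for all 9 genes. WT1012 was the highest for 7 of the 9, as for 20% of tested genes, and KO1011 was the highest for *Mobp* and *Ermn*.

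None of the 9 genes passed the test between genotypes, limma on log2(FPKM + 1) with a Benjamini-Hochberg adjusted p under 0.05 over the 12863 genes that averaged at least 1 FPKM. All 9 entered the test. Of all tested genes 0.00777% were called, which is *Chrdl1* alone, and at an unadjusted p under 0.05 the count was 0 of the 9, beside 0.63% of tested genes. KO and WT values overlapped for 9 of 9, where 2.95% of tested genes had no overlap. Each gene had a lower mean log2 level in KO, as 46.2% of tested genes did, with log2 fold changes from -0.25 (SE 0.25) for *Mbp* to -0.10 (SE 0.19) for *Cnp*. Their median was -0.17, beside 0.01 over all tested genes.

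The intervals show what these libraries could resolve. Without the pair in the model, the 95% interval of the log2 fold change was -0.83 to 0.33 for *Mbp*, -0.55 to 0.35 for *Cnp* and -1.30 to 0.88 for *Mal*, and each included 0. The limma adjusted p was 1 for all 9, and an exact 2-sided permutation test over the 6 libraries gave p = 0.6 to 0.8, where 3 against 3 libraries can reach 0.1 at the lowest. With the pair as a replicate block the intervals narrowed, to -0.52 to 0.02 for *Mbp*, -0.30 to 0.09 for *Cnp* and -0.55 to 0.12 for *Mal*. The blocked fit called 0 of the 9, with 0.00777% of genes called (limma adjusted p 0.999 for each, unadjusted p 0.0625 for *Mbp* and 0.174 to 0.256 for the others). At an unadjusted p under 0.05 it held 0 of the 9, beside 3.91% of tested genes. With voom on recovered reads and the same block, added after seeing the data, *Mbp* alone of the 9 was under 0.05 (unadjusted p 0.0217, adjusted p 0.999), beside 4.17% of tested genes. In fits without the block the direction depended on single libraries: the median over the 9 was 0.12 without KO1013 and 0.06 without WT1012. Those fits kept the partner of the library left out, so the difference between pairs entered the genotype difference. With both libraries of a pair left out, the median was -0.35 without pair A, -0.00 without pair B and -0.15 without pair C.

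**Figure D2:**
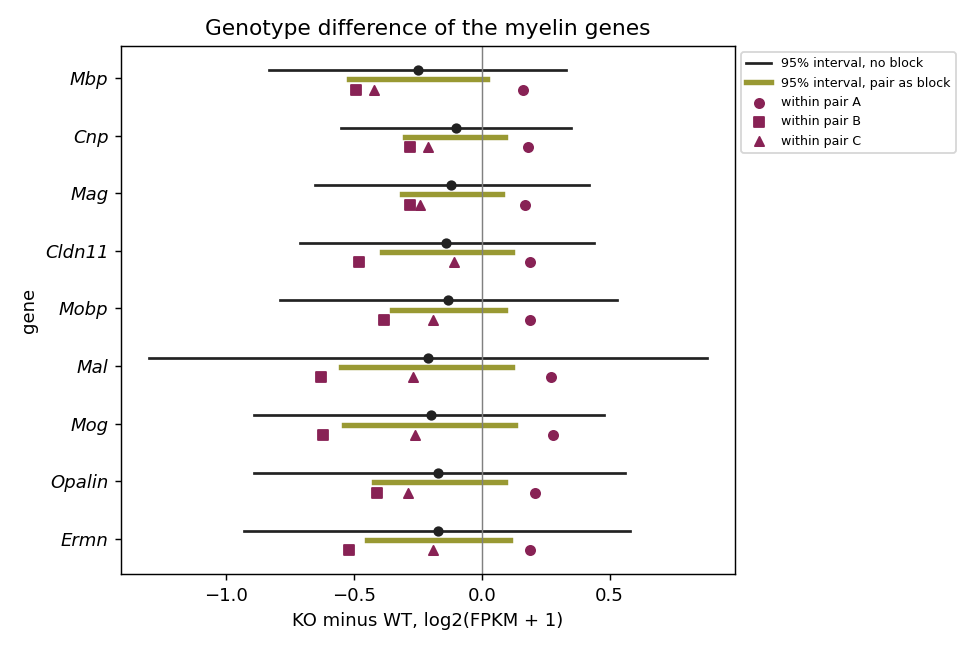
KO minus WT on the log2(FPKM + 1) scale for each of the 9 genes: black points and lines give the limma estimate and 95% interval without a block, olive lines the 95% interval with the pair as block, and purple symbols the difference within each pair. All intervals include 0, the pair A symbols lie at 0.16 to 0.28 and the pair B and C symbols lie below 0.

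Within pairs the genotype difference took opposite signs. In pair A the 9 genes were higher in KO, at 112% (*Mbp*) to 122% (*Mog*) of the WT level. In pair B they were lower in KO, at 64.1% (*Mal*) to 82.5% (*Cnp*), and in pair C at 74.6% (*Mbp*) to 92.3% (*Cldn11*). The medians of pairs A, B and C were 0.19, -0.48 and -0.24 on the log2 scale, against 0.01, 0.01 and -0.01 over all tested genes. The pattern of higher in pair A and lower in pairs B and C held for 9 of the 9 and for 17.4% of tested genes. With 1 library of each genotype per pair, a difference between pairs in the genotype effect could not be tested.

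Markers of other tissues moved with some of these differences. The 10 striatal markers summed to 288, 261 and 308 FPKM in WT1011, WT1012 and WT1013 and to 301, 136 and 134 in KO, so the KO libraries of pairs B and C were below their WT partners for striatal as for myelin genes. The 9 myelin genes summed to 1585 FPKM in KO1012. That was below WT1012 (2181), KO1011 (1968) and WT1011 (1745) and above WT1013 (1339) and KO1013 (1052). In WT1013 the striatal sum was the highest of the 6 while the 9 myelin genes, at 1339 FPKM in all, were the lowest of the 3 WT libraries. The 8 meningeal fibroblast markers summed to 79.9 to 85.9 FPKM in WT and to 86.3, 109 and 108 in KO1011, KO1012 and KO1013. The part of these cell types in the genotype difference was not tested.

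**Figure D3:**
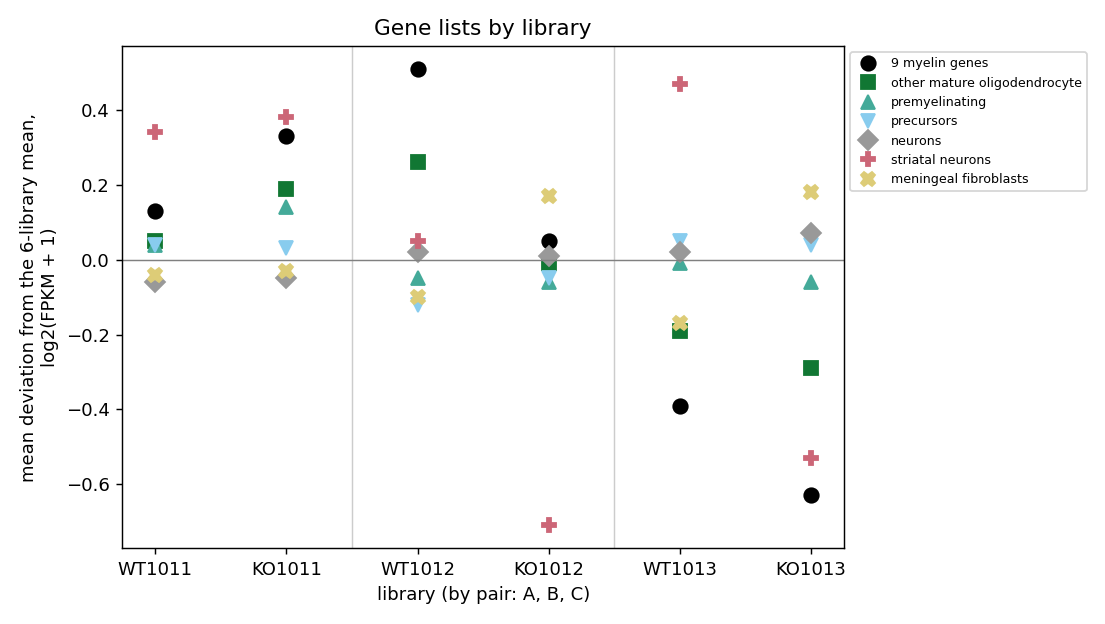
Mean deviation of each gene list from its own 6-library mean, on the log2(FPKM + 1) scale, in the WT and KO library of each pair. The 9 myelin genes (black) run from 0.51 in WT1012 to -0.63 in KO1013 and are low in both libraries of pair C, while striatal markers (red) are at 0.47 in WT1013 and -0.53 in KO1013.

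The pair separated the myelin genes where the genotype did not. An F test of the pair in limma, with genotype in the model, called 9 of 9 genes (adjusted p 0.00495 for *Mal* to 0.0238 for *Mog*), where it called 30.6% of tested genes. The lower level of pair C carried this. All 9 were called lower in pair C than in pair A, as 6.76% of tested genes were, and all 9 lower in pair C than in pair B, as 3.59% were. Between pairs B and A the test called 0 of the 9 (limma adjusted p 0.138 to 0.982), where 29.4% of tested genes were called. In bulk tissue, fewer oligodendrocytes and less myelin RNA per oligodendrocyte cannot be told apart.

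*Mal* had the largest estimate, -1.25 (SE 0.18) against pair A and -1.37 (SE 0.18) against pair B, and the mean of its 2 libraries of pair C was 41.2% of that of pair A. *Ermn* followed against pair A with -0.97 (SE 0.15), and *Mobp* with -0.84 (SE 0.12). *Opalin* stood at -0.67 (SE 0.13) against pair A and -0.96 (SE 0.13) against pair B. *Mbp* measured -0.64 and -0.60 (SE 0.14), and *Cnp*, the smallest, -0.40 and -0.55 (SE 0.10). The 2 libraries of pair C were the 2 lowest of 6 for 9 of the 9 genes and for 8.57% of tested genes. The 9 varied together across the libraries, so this count and those given above are not 9 independent results. In WT alone, pair C held 49.8% (*Mal*) to 87% (*Cnp*) of the level of pair A, and in KO alone 34% to 66.3% for the same genes.

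**Figure D4:**
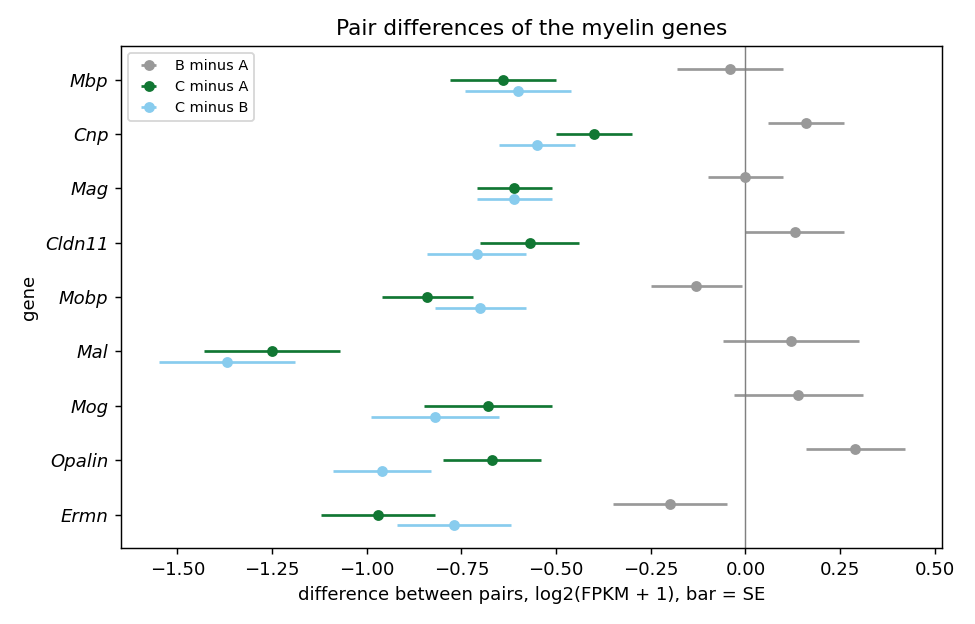
Differences between pairs for each of the 9 genes, on the log2(FPKM + 1) scale with genotype in the model, with bars of 1 SE. Both differences that involve pair C (green, light blue) lie at -0.40 or lower, and those between pairs B and A (grey) lie from -0.20 to 0.29.

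The calls between pairs depended on both libraries of pair C and on the filter. Without WT1013 the F test called 4 of the 9 (*Mobp*, *Mal*, *Mag* and *Opalin*) and 15.8% of tested genes. Without KO1013 it called *Mal* alone of the 9 and 16.1% of tested genes. Pair C rested on 1 library in both fits, and the share called over all tested genes also fell from the 30.6% of the 6 libraries. Without any filter on low values it called *Mal* alone of the 9 (limma adjusted p 0.0454, the others 0.05 to 0.112) and 6.81% of the 19781 genes then tested. Depth was 38.2 megareads in WT1013 and 26.4 in KO1013, and 22.7 to 34 in the other 4 libraries. The 8 general neuron markers summed to 2087 and 2149 FPKM in the libraries of pair C and to 2003 to 2200 in the other 4. Single members still differed between pairs, and the F test called 4 of the 8, beside 30.6% of all tested genes. *Tubb3*, a neuronal tubulin gene, measured 386 and 390 FPKM in WT1013 and KO1013 and 271 to 294 in the other 4 (limma adjusted p 0.00219). *Map2*, a dendritic microtubule protein gene, stood in pair C at 0.39 against pair A and 0.08 against pair B on the log2(FPKM + 1) scale, and *Snap25*, a synaptic vesicle fusion gene, at -0.14 against pair A and -0.29 against pair B. *Nefl*, a neurofilament gene and the other one called, stood at 0.05 against pair A and 0.21 against pair B. The part of depth and of neuronal RNA in the difference between pairs was not tested.

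The 9 genes did not keep fixed proportions. *Mal* stood at 0.371, 0.423 and 0.213 times the FPKM of *Cnp* in WT1011, WT1012 and WT1013, and at 0.395, 0.329 and 0.203 in KO. The ratio was thus lowest in both libraries of pair C and spanned 2.08 times. The ratio of *Mag* to *Cnp* spanned only 1.18 times, from 0.545 in KO1013 to 0.645 in WT1011, and that of *Mbp* to *Cnp* 1.28 times, from 4.95 in KO1013 to 6.35 in WT1011. These ratios are descriptions without a test.

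Other genes of the lineage were taken from lists that left out the 9. Of 29 other myelin and mature oligodendrocyte genes, 27 entered the test and 0 were called between genotypes, with 21 lower and 6 higher and a median log2 fold change of -0.06. *Gamt*, a creatine synthesis enzyme gene, measured 12, 18.2 and 11.7 FPKM in WT1011, WT1012 and WT1013 and 12.2, 11.5 and 9.92 in KO (log2 fold change -0.27, SE 0.16). *Gjb1*, the connexin 32 gene of oligodendrocyte gap junctions, was at -0.32 (SE 0.24), and *Ndrg1* at 0.14 (SE 0.11). The F test between pairs called 14 of the 27, beside the 30.6% of all tested genes, and the median difference of pair C from pair A was -0.37.

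Of 11 myelin lipid synthesis genes 0 were called between genotypes, with 10 lower and a median of -0.10. *Ugt8a*, which makes the galactolipids of myelin, measured 41.1, 46.1 and 32.2 FPKM in WT and 48.2, 30.4 and 26.2 in KO (log2 fold change -0.21, SE 0.22). *Gal3st1*, which sulphates them, was at -0.11 and the fatty acid elongase gene *Elovl7* at -0.13. Between pairs 4 of the 11 were called, beside 30.6% of all tested genes. The 12 lineage transcription factor genes had 0 called between genotypes and 6 between pairs, beside the same 30.6%. *Olig2* was level across the libraries, at 13.3 to 13.8 FPKM in WT and 13.7 to 14.4 in KO (log2 fold change 0.06), and *Olig1* and *Sox8* were at -0.07 and 0.08.

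Earlier stages lay close together between genotypes. Of 11 premyelinating genes 0 were called, with a median of 0.01. *Gpr17*, a receptor gene of that stage that also stood on the precursor list, measured 47, 41.6 and 42.9 FPKM in WT and 51, 45 and 46.5 in KO (log2 fold change 0.11, SE 0.08). *Bmp4* was at 0.09 and *Itpr2* at 0.06. Of 11 precursor genes 0 were called, with a median of 0.01, and *C1ql1* and the NG2 proteoglycan gene *Cspg4* were at 0.12 and 0.09. Of 9 genes that restrain the differentiation of oligodendrocytes 0 were called. They included *Hes5*, a Notch target, at -0.13, the receptor gene *Gpr37* at -0.11 and the BMP target *Id2* at 0.06.

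The lineage lists are given here in the order of their median difference of pair C from pair A, and not every list is a stage. That median was 0.01 for genes that restrain differentiation, -0.02 for precursor genes and -0.22 for premyelinating genes. It was -0.24 for transcription factor genes, -0.26 for lipid synthesis genes, -0.37 for other mature genes and -0.67 for the 9 myelin genes. Over all tested genes it was 0.02. Against pair B the medians were 0.01, 0.15, 0.05, -0.11, -0.26, -0.34 and -0.71 for the same lists in the same order. The F test between pairs called 1 of 11 precursor and 3 of 11 premyelinating genes, beside 30.6% of all tested genes. The lists share some genes (*Olig2*, *Gpr17*, *Bmp4*, *Gpr37*, *Sox6*), and the difference between lists was not tested.

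**Figure D5:**
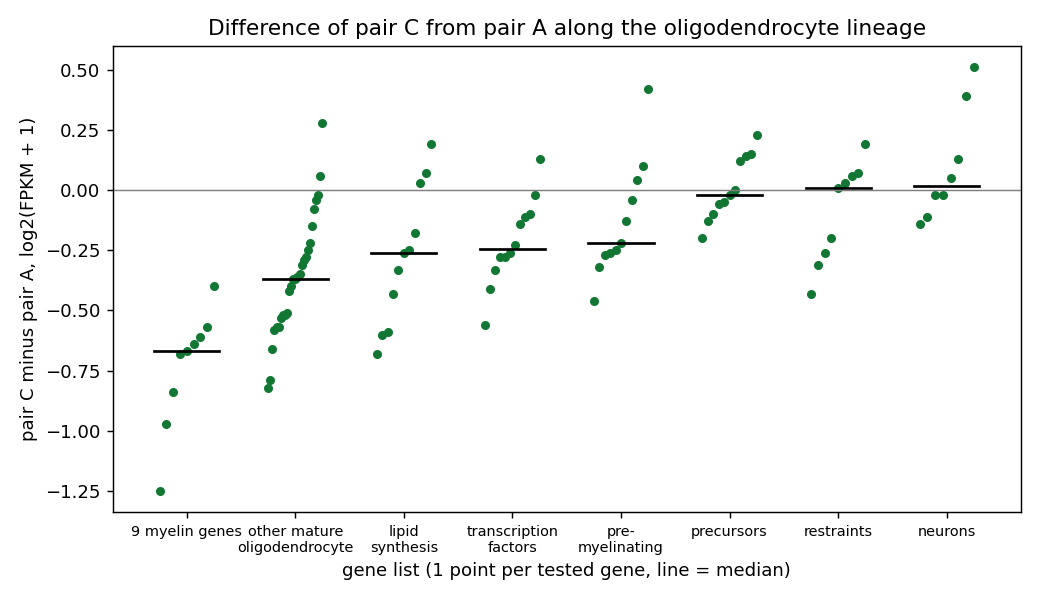
Difference of pair C from pair A on the log2(FPKM + 1) scale for each tested gene of 8 lists, with the list median as a line. The median goes from -0.67 for the 9 myelin genes to -0.02 for precursor genes and 0.02 for general neuron genes.

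The Schwann cell, the myelinating cell of peripheral nerve, expresses several of the same genes. Of its markers *Prx*, *Pmp2*, *Ncmap* and *Cldn19* were all below the filter. *Prx*, the periaxin gene, measured 0.185 to 0.277 FPKM over the 6 libraries, and *Ncmap* 0.21 to 0.327. *Cldn19* measured 0.044 to 0.256 FPKM, and *Pmp2* was highest at 0.054 in WT1011 and listed at 0 in 2 libraries. *Egr2* is also an activity-regulated gene of neurons and measured 2.25 to 8.42 FPKM. The 4 other Schwann cell markers given here were therefore near 0 in every library.

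The genes most like the 9 in their profile were sought among all other tested genes, by the root mean square difference between a gene's 6 deviations from its own mean and the mean deviations of the 9, on the log2(FPKM + 1) scale. That difference was 0.417 for the median tested gene outside the 9 and 0.0632 (*Mog*) to 0.265 (*Mal*) for the 9 themselves. The 9 make up the mean they are compared with, which lowers their own differences. Even so, 171 tested genes outside the 9 were closer to that mean than *Mal*. *Trf*, the transferrin gene, was at 0.0651, *Aspa*, which encodes aspartoacylase, at 0.0681, and *Pdlim2* at 0.0792. *Gsn*, the gelsolin gene, followed at 0.0937, *Ppp1r14a* at 0.0958, the fatty acid hydroxylase gene *Fa2h* at 0.11 and *Plekhb1* at 0.115. *Trf* measured 39.4, 56.6 and 26.1 FPKM in WT1011, WT1012 and WT1013 and 45.1, 37.6 and 21.8 in KO, the same order of libraries as *Mog*. *Pdlim2* (6.76, 10.2 and 5.16 in WT, 8.2, 7.28 and 4.37 in KO) and *Ppp1r14a* were on none of the lists.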

How the data were processed

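Messenger RNA was profiled in 6 libraries, 3 WT and 3 KO. The authors deposited 1 table of FPKM values, counted over exons on mm10 with 1 row per gene by HOMER, per the file headers. STAR 2.4.0k, HOMER 4.8.3 and FastQC are named in the submitters' processing notes. The command names no strand option and 12 libraries, of which 6 have columns. The others are not analysed here.

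Library totals were estimated from the 1-read steps of the FPKM values (within 0.1 read, 100% of those examined came out whole) and gave reads per gene. The test was limma 3.58.1 (R 4.3.3) with an intensity trend on log2(FPKM + 1), 2-sided, over the 12863 genes averaging at least 1 FPKM, adjusted by Benjamini-Hochberg and called under 0.05. All folds are on this scale, on which low genes change less than in FPKM. Differences between pairs were tested by an F test and by contrasts with genotype in the model. Tests were also run on simulated data with noise drawn separately for each gene, which does not cover noise that genes share. Tables and figures were made in Python 3.11.15 (pandas 2.3.3, matplotlib 3.10.9, numpy 2.4.6, scipy 1.17.1).

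Libraries with the same code in their titles varied in parallel. Correlations of deviations from the genotype means were 0.71, 0.67 and 0.43 for pairs A, B and C, against -0.61 to -0.06 for other pairings. Deviations cancel over the 3 libraries of a genotype, so positive values for the pairs push the other pairings to negative values. The contrast is therefore not independent support for the pairing. The libraries were paired by their shared code, although the labels do not say that it pairs them. Alternatives were a pseudocount of 0.1, no filter, quantile normalization, voom on recovered reads, a replicate block and leaving out libraries. The members and lists were chosen with earlier results of these data known. Named genes were the 9, *Chrdl1*, 3 per lineage list by smallest p, and the 8 most like the 9 in profile, of which 1 is not reported here. Genes named beyond these were chosen after their values were seen. All 150 further list entries matched the table. Sequences are from RefSeq.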

Additional observations from a re-analysis of the deposited data

How the results depend on the processing

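No alternative called any of the 9 genes between genotypes (135 fits of single genes, lowest limma adjusted p 0.999), and the replicate block changed no call. Over the whole table the count of genes called between genotypes, 1, became 2 with a pseudocount of 0.1, 6 without a filter, 2 with voom on recovered reads and a replicate block (added after seeing the data), and 0 by limma without pair A or without pair C (208 and 29 genes at an unadjusted p under 0.05). It was 1 to 4 with single libraries left out. Without the block, the median over the 9 ranged from -0.41 to 0.12 with single libraries left out. It ranged from -0.35 to -0.00 with both libraries of a pair left out. With single libraries left out, the log2 fold change ranged from -0.47 to -0.00 for *Mbp* and did not turn positive. For the others it ranged from -0.37 to 0.14 for *Mobp*, -0.63 to 0.24 for *Mal*, -0.35 to 0.09 for *Cldn11* and -0.44 to 0.06 for *Mog*. The ranges were -0.29 to 0.12 for *Mag*, -0.41 to 0.14 for *Opalin*, -0.23 to 0.08 for *Cnp* and -0.46 to 0.12 for *Ermn*. Without both libraries of pair B the log2 fold change was 0.04 for *Cldn11*, 0.01 for *Mog* and 0.00 for *Ermn*. For the other genes of the 9 it was -0.13 (*Mbp*) to -0.00 (*Mobp* and *Mal*). Between pairs the count of genes called, 3936, became 1347 without a filter, with 1 of the 9, and the cause was not tested. With single libraries left out it was 2038 (without WT1013) to 3923, with 1 to 9 of the 9. The single-gene permutation p was not recomputed beyond the pseudocount. The standard error of the log2 fold change of the 9 was 0.19 to 0.47 without the replicate block and 0.08 to 0.14 with it, so the precision of the genotype comparison rests on the pairing.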

Other observations

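The values of 4 other genes of the lineage are given here, singled out after they were seen. *Enpp6*, a choline phosphodiesterase gene of newly forming oligodendrocytes, measured 8.96, 5.85 and 6.92 FPKM in WT1011, WT1012 and WT1013 and 9.07, 5.72 and 5.67 in KO. It was thus highest in both libraries of pair A, and the limma adjusted p of the F test between pairs was 0.00784. *Adamts4*, a metalloproteinase gene, was highest in pair A and lowest in pair C in both genotypes, at 9.03, 7.61 and 6.13 FPKM in WT and 9.99, 6.89 and 6.44 in KO (limma adjusted p 0.00985). *Apod*, the apolipoprotein D gene, was lowest in pair C in both genotypes, at 28.8, 36.6 and 18.8 FPKM in WT and 31.2, 32.6 and 20.9 in KO (limma adjusted p 0.00326), but in that pair its KO library was the higher one. *Pdgfra*, the receptor gene that defines precursors, measured 16.4, 12.1 and 15.6 FPKM in WT and 15.4, 13.9 and 14.9 in KO, lowest in pair B in both genotypes, and was not called between pairs (limma adjusted p 0.0626).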
